A study of Mus musculus with 28 samples.

Results

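The genes described here are 32 genes of blood coagulation, chosen by name for their roles in hepatocytes and endothelium, of 33856 gene rows in the table of cell pairs and 33924 in the table of single cells. They are 22 secreted factors and inhibitors made by hepatocytes, 4 genes of the vitamin K cycle and of clotting factor export, 5 endothelial genes (F8, Vwf, Thbd, Tfpi and Procr) and Plat, the tissue plasminogen activator. All 32 had a row in both tables. All had at least 1 UMI in single cells, and 31 had one in pairs, where Plat had 0. A UMI is a molecular tag that stands for 1 captured mRNA molecule.

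All livers came from C57BL/6 males that had fasted for 2 hours, were anaesthetised with ketamine and xylazine, and were perfused with a collagenase (Liberase Blendzyme 3 or Collagenase D). The pair samples, 17 libraries from 3 mice (1 aged 6 weeks and 2 aged 7 weeks), are wells holding a hepatocyte with an attached CD31+ cell, CD31 being a surface protein of endothelium. The non-parenchymal samples, 11 libraries from 2 mice aged 3 and 4 months, are wells holding 1 liver cell that is no hepatocyte. mRNA was counted at its 3' end with MARS-seq, a plate-based single-cell method. In such pairs the transcripts of the hepatocyte place its endothelial neighbour in the lobule.

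Coagulation is a cascade of proteases that ends in thrombin, which turns fibrinogen into fibrin, and it is held in check by circulating inhibitors and by receptors on the vessel wall. Hepatocytes make most of the proteases, fibrinogen and the inhibitors, and several of these proteins need carboxylation that depends on vitamin K. Endothelium is known for factor VIII, von Willebrand factor, thrombomodulin, tissue factor pathway inhibitor and the protein C receptor. Blood crosses the liver lobule from the portal tracts to the central vein, and cells along that path are called periportal or pericentral.

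The 3 fibrinogen chain genes are neighbours on mouse chromosome 3 and had the same direction across the lobule in the results that follow, so their promoters are shown. RefSeq promoters (build GRCm38.p6, not the mm9 build named for the counts) matched 24 of the 32 genes, with 25 entries. Each sequence ends 1 base before the gene start. Capitals mark GTTAAT, a motif found in promoters of liver genes, and TTGCAA, a core of the C/EBP motif, each searched on both strands.

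Fgg, chr3:83007544-83007723, plus strand: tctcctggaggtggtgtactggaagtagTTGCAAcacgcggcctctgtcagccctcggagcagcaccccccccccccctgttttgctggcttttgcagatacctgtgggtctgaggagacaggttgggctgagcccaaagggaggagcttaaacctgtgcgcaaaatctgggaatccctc

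Fga, chr3:83025973-83026152, plus strand: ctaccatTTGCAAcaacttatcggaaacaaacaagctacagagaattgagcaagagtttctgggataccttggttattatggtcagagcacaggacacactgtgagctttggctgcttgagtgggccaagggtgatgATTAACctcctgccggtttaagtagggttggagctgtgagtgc

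Fgb, chr3:83049864-83050013, minus strand: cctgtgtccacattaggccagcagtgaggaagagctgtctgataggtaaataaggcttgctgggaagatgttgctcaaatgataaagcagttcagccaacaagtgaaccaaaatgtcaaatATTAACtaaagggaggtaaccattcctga

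In the 250 bases before the start, GTTAAT was found in 4 of 21 entries of hepatocyte genes (F13b, Fga, Fgb and Proz) and in 0 of 4 entries of endothelial genes, beside 6.43% of all 32851 promoters. TTGCAA was found in Fga and Fgg, beside 5.34% of all promoters. The GC box GGGCGG was found in 7 of the 25 entries, those of F5, Ggcx, Mcfd2, Pros1, Tfpi and Vkorc1, beside 32.7% of all promoters. A match describes letters in a window and not a bound site.

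Pairs were ordered along the lobule by 10 pericentral and 8 periportal hepatocyte landmark genes, none of them a coagulation gene. The outer tertiles of that order are called the pericentral and the periportal zone and hold 1527 pairs each. Of 4621 pairs, 4580 could be placed, and 1145 of them lay within 0.05 score units of a zone limit. The median depth was 11172 UMIs for pericentral pairs and 10401 for periportal pairs. Levels are UMIs per 1000000 gene UMIs of the same wells, without correction for transcript length, since 1 end of each molecule is counted. No source maps a well to its library or mouse, so each table is 1 sample and no test between zones or classes was possible. The 95% intervals cover counting error only, and pairs and cells are not replicates. In summed wells, fewer cells of a type and less RNA per cell cannot be told apart.

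The 32 genes made up 1.95% of all UMIs in pairs, and the 3 fibrinogen genes 0.820%. Fgb had the highest level over all pairs, 4039 UMIs per 1000000, before Fgg (2499), Kng1 (2113), Fga (1663), Serpinc1 (1585) and F2 (1165). Plg (995), F5 (605), Proc (556) and F12 (549) came next. Among hepatocyte genes the lowest were F7 (84.3), F11 (73.9), Pros1 (44.0) and Ggcx (37.2). The first 4 of these were the 3 fibrinogen chains and Kng1.

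Secreted clotting factors and inhibitors were mostly lower in pericentral pairs. Together they were 1.60% of UMIs in pericentral and 2.09% in periportal pairs. Of the 26 hepatocyte genes, 21 had a log2 ratio (pericentral over periportal) below 0, beside 35.4% of the 11435 genes measured. A counting interval wholly below 0 was found for 20 of the 26, beside 11% of those genes. Many of those genes had fewer UMIs and so wider intervals. Among the 1689 genes at least at the level of F11, 552 were below 0 and 398 had an interval wholly below 0. All hepatocyte genes but Pros1 and Ggcx reached that level. The median log2 ratio of the 22 secreted genes was -0.28, beside 0.10 for all genes measured. By role, the median was -0.51 for fibrinogen and F13b (4 of 4 below 0), -0.47 for the serpins (4 of 4), -0.31 for the fibrinolysis genes (2 of 2), -0.23 for the contact phase (4 of 4), -0.14 for the vitamin K-dependent proteins (6 of 7) and 0.03 for the vitamin K cycle and cargo genes (1 of 4). F5, the 1 secreted cofactor outside these groups, was at 0.22. Wells were also divided by their numbers into blocks, which are not known to be libraries, and zones were taken anew within each. In the 16 blocks of at least 60 pairs the median of the secreted genes ran from -0.34 to -0.14 (SD 0.065).

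Few of these differences were large. Fga, Serpinf2 and Serpind1, 3 of the 26 hepatocyte genes, were at least 1.5-fold higher in the periportal zone, as were 5.1% of all genes measured, and 0 were in the pericentral zone, as were 8.84% of all genes. All 3 lay just past the limit, each at 1.52-fold, and Fgb just short of it, at 1.47-fold. The count depended on the landmark list. The list first run also held Pck1 and gave 0 of 26, with log2 ratios of -0.57 for Fga, -0.55 for Serpind1, -0.54 for Fgb and -0.50 for Serpinf2. Pck1 was taken off the list after these gene values had been seen. It held 69.0% of the periportal landmark UMIs, and between zones set by 8 core landmarks its own log2 ratio was -0.39. Gls2, Agxt2l1, Aldh1b1 and Ctsc, the other periportal landmarks outside that core, were at -4.01 to -5.24. Cyp2f2, Hal, Sds and Hsd17b13 belong to the core and set those zones, so their ratios are no comparison. With Pck1 on the list 22 of the 26 genes were below 0 and the secreted median was -0.28.

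**Figure D1:**
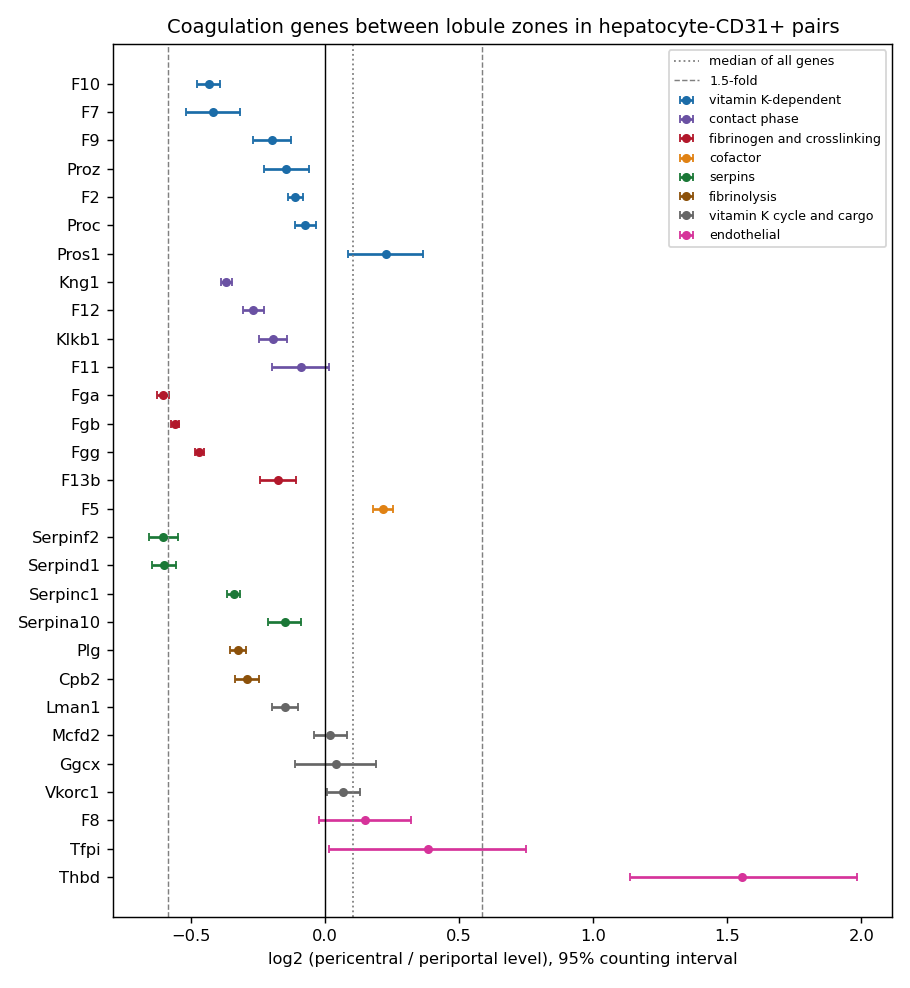
Log2 ratio of the level in pericentral over periportal pairs for 29 coagulation genes, with 95% counting intervals, coloured by role. Endothelial genes are scaled to endothelial UMIs and the others to all gene UMIs; dashed lines mark 1.5-fold and the dotted line the median of all genes. The fibrinogen chains, Serpind1 and Serpinf2 lie farthest to the left and Thbd, at 1.55, farthest to the right.

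Fibrinogen is the soluble precursor of the clot and is assembled from 3 chains. Over 8 layers of near equal pair number, with layer 1 the most pericentral and layer 8 the most periportal, Fga had 1179, 1331, 1502, 1642, 1755, 1883, 1974 and 2047 UMIs per 1000000. Fgb had 2921, 3295, 3680, 3946, 4276, 4608, 4807 and 4810, and Fgg had 1950, 2085, 2324, 2459, 2626, 2770, 2884 and 2915. Each chain was higher in every layer than in the one before it on the pericentral side, and layer 8 stood over layer 1 by 1.74-fold for Fga, 1.65-fold for Fgb and 1.49-fold for Fgg. The step between the last 2 layers was small for Fgb and Fgg. The median depth was 8995 UMIs in layer 1, 13517 in layer 2 and 9684.5 to 10825.5 in layers 3 to 8. The part of depth in the layer profiles of these and the other genes was not tested.

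Between zones, Fga had 1305 UMIs per 1000000 in pericentral and 1984 in periportal pairs, a log2 ratio of -0.60 (interval -0.63 to -0.58). Fgb had 3236 and 4764 (-0.56, -0.57 to -0.54), and Fgg 2079 and 2874 (-0.47, -0.49 to -0.45). The direction was the same in 17 of 17 blocks for each chain. The levels of single blocks did overlap, with Fga at 958 to 1823 in pericentral pairs (median 1362) and 1562 to 2639 in periportal pairs (median 1865). F13b, the carrier subunit of the factor that crosslinks fibrin, had 168 and 190 (-0.17, -0.24 to -0.11), and 14 of 17 blocks had that direction.

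The serpins trap proteases. Serpind1, heparin cofactor II, had 328 UMIs per 1000000 in pericentral and 496 in periportal pairs (log2 ratio -0.60, interval -0.65 to -0.55), and over layers 1 to 8 it had 314, 321, 377, 386, 409, 424, 496 and 536. Its block levels ran from 256 to 393 in pericentral pairs (median 333) and from 411 to 625 in periportal pairs (median 501). These block ranges did not overlap, and Serpind1 was the only one of the 32 genes of which that was true. The share of all measured genes with block ranges apart was not computed, so this does not set Serpind1 apart. Serpinf2, which inhibits plasmin, had 232 and 352 (-0.60, -0.66 to -0.55). Over layers 1 to 8 it had 218, 239, 259, 284, 311, 327, 364 and 361. Serpinc1, antithrombin, had 1387 and 1755 (-0.34, -0.36 to -0.32). Serpina10, which acts on factor Xa together with protein Z, had 208 and 231 (-0.15, -0.21 to -0.09) and was highest in layer 6. The inhibitors of thrombin and of plasmin thus had larger ratios than Serpina10.

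The vitamin K-dependent proteins bind membranes through carboxylated residues. F10, whose active form makes thrombin, had 408 UMIs per 1000000 in pericentral and 550 in periportal pairs (log2 ratio -0.43, interval -0.48 to -0.39). Over layers 1 to 8 it had 387, 417, 423, 476, 502, 517, 543 and 580, higher at each of 7 steps. F7, which starts clotting together with tissue factor, had 71.2 and 95.04 (-0.42, -0.52 to -0.31), with that direction in 16 of 16 blocks. These were the 2 steepest genes of the group, and they lie next to each other on chromosome 8, with Proz as the next neighbour of F10.

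Proz, protein Z, had 116 and 128 UMIs per 1000000 in pericentral and periportal pairs (-0.14), and F9, the protease deficient in haemophilia B, had 156 and 178 (-0.20). F2, prothrombin, had 1098 and 1185 (-0.11, interval -0.14 to -0.08), with 1083, 1075, 1173, 1211, 1225, 1202, 1199 and 1165 over layers 1 to 8. Its highest layer was layer 5, in the middle of the lobule, and its layers differed by at most 1.14-fold. Proc, the zymogen of the anticoagulant activated protein C, had 536 and 564 (-0.07), with that direction in 11 of 17 blocks. Pros1, protein S, the cofactor of protein C, had 47.3 and 40.4 (0.23, interval 0.09 to 0.37) and was the only vitamin K-dependent member above 0, in 10 of 16 blocks.

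The contact phase genes lay below 0. Kng1, the precursor of bradykinin, had 1836 and 2370 UMIs per 1000000 in pericentral and periportal pairs (-0.37, interval -0.39 to -0.35) and was higher at each of 7 steps over the layers, with 1766 in layer 1 and 2402 in layer 8. Reads of Kng1 and its close copy Kng2 may have been split in counting, so both levels are uncertain. F12, the protease that starts the contact phase, had 494 and 594 (-0.27), and Klkb1, prekallikrein, had 283 and 323 (-0.19). F11, the next protease, had 71.5 and 76.1 (-0.09, interval -0.20 to 0.02), which spans 0. Klkb1 and F11 are neighbours on chromosome 8.

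Both genes of fibrinolysis were lower in pericentral pairs. Plg, plasminogen, had 875 and 1095 UMIs per 1000000 in pericentral and periportal pairs (-0.32, interval -0.35 to -0.29), and Cpb2, a carboxypeptidase that slows fibrinolysis, had 406 and 497 (-0.29, -0.33 to -0.25). Each had that direction in 17 of 17 blocks. Plg was highest in layer 7, at 1123, and lowest in layer 1, at 821.

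F5, the cofactor with which factor Xa makes thrombin, had the opposite direction. Over layers 1 to 8 it had 663, 638, 630, 611, 625, 588, 571 and 519 UMIs per 1000000. It had 644 in pericentral and 554 in periportal pairs (0.22, interval 0.18 to 0.25), and 15 of 17 blocks had that direction. Its block levels overlapped widely, at 445 to 753 in pericentral and 380 to 738 in periportal pairs. F5 and Pros1 were the 2 secreted genes above 0.

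The genes that process and export these factors were nearly level. Ggcx, the carboxylase, had 37.5 and 36.5 UMIs per 1000000 in pericentral and periportal pairs (0.04, interval -0.11 to 0.19), and Vkorc1, the reductase that warfarin inhibits, 225 and 214 (0.07, 0.01 to 0.13). Mcfd2 had 226 and 223 (0.02, -0.04 to 0.08) and was the flattest of the measured genes over layers, at 1.06-fold between its highest and lowest. Lman1, which with Mcfd2 carries factors V and VIII out of the endoplasmic reticulum, had 352 and 390 (-0.15, -0.20 to -0.10). The values of Ggcx, Vkorc1 and Mcfd2 lay below the all-gene median of 0.10.

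**Figure D2:**
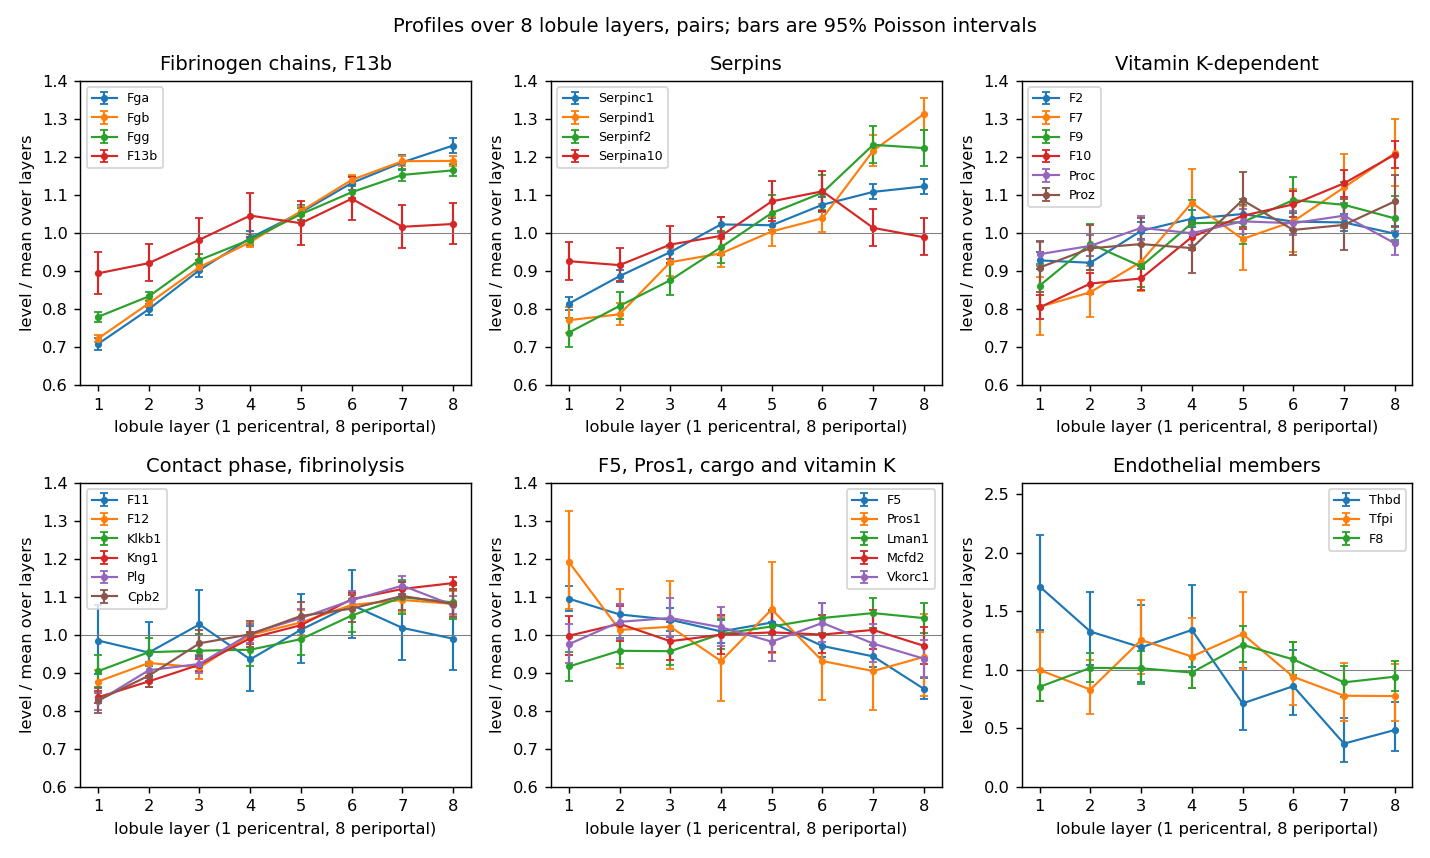
Level of coagulation genes in 8 lobule layers, each divided by its mean over the layers, with 95% Poisson intervals; layer 1 is the most pericentral. The 3 fibrinogen chains climb together toward layer 8, F5 is lowest in layer 8, and Thbd is highest in layer 1.

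**Figure D3:**
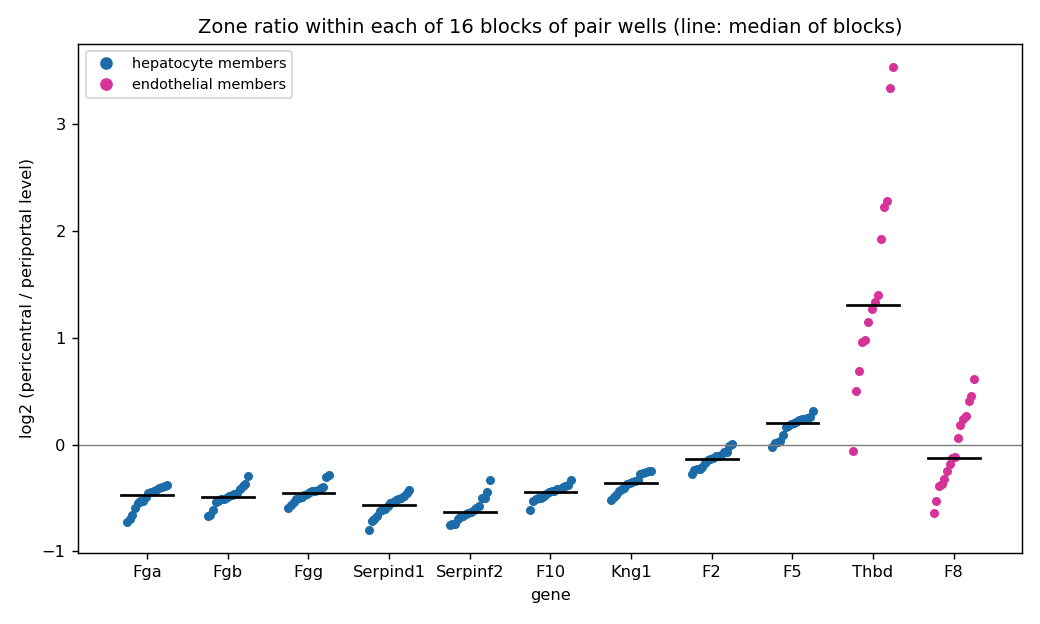
Log2 ratio of the pericentral over the periportal level within each of 16 blocks of pair wells, with a line at the median of the blocks; blocks with under 10 UMIs of a gene are not drawn. All points of Fga, Fgb, Fgg, Serpind1, Serpinf2, F10 and Kng1 lie below 0, while those of F8 lie on both sides, between -0.64 and 0.61.

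Endothelial genes gave few UMIs in pairs. Over all pairs F8 had 30.3 UMIs per 1000000, Tfpi 7.41, Thbd 6.53, Procr 0.211 (12 UMIs) and Vwf 0.123 (7 UMIs). A set of 687 endothelial genes was 0.415% of UMIs in pericentral and 0.461% in periportal pairs, so the ratio of endothelial genes was taken per UMI of that set, which shifts it by 0.15 upward. Vwf, with 4 and 2 UMIs in pericentral and periportal pairs, and Procr, with 2 and 5, were under the minimum of 30 UMIs.

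Thbd, thrombomodulin, the receptor that turns thrombin to the activation of protein C, was higher in pericentral pairs. It had 178 UMIs in pericentral and 66 in periportal pairs, a log2 ratio of 1.55 (interval 1.14 to 1.98), or 1.399 per gene UMI. It was 1 of 3 measured endothelial members past 1.5-fold in the pericentral direction, as were 8.51% of the 470 endothelial genes measured. Over layers 1 to 8 it had 11.2, 8.67, 7.78, 8.76, 4.66, 5.62, 2.41 and 3.17 UMIs per 1000000. The 4 layers nearest the central vein thus all lay above the other 4, and 13 of 14 blocks had that direction. Block levels ran from 3.24 to 24.8 in pericentral pairs and from 0.636 to 5.90 in periportal pairs. The direction of Thbd was known from earlier results on these samples, so it is no independent finding.

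Tfpi, the inhibitor of tissue factor and factor VIIa, had 139 and 116 UMIs in pericentral and periportal pairs (0.38, interval 0.02 to 0.75). Per gene UMI the value was 0.23 with an interval of -0.14 to 0.60, and 7 of 14 blocks had that direction. F8, the cofactor missing in haemophilia A, had 566 and 555 UMIs (0.15, interval -0.02 to 0.32; -0.00 per gene UMI). Over layers 1 to 8 F8 had 25.8, 30.7, 30.6, 29.5, 36.6, 32.9, 26.9 and 28.4 UMIs per 1000000, highest in layer 5, where the endothelial set also had its highest share, 0.515%. The median over Thbd, Tfpi and F8 was 0.38 per endothelial UMI, beside 0.00 for the endothelial genes, and 0.23 per gene UMI. With 3 genes this median is the value of Tfpi, and it is on another scale than the median of the hepatocyte genes.

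Single endothelial-like cells from the other mice were ordered by 6 pericentral and 5 periportal endothelial landmark genes, none of them a coagulation gene. Of 847 such cells 676 had a landmark UMI, and the outer tertiles held 222 pericentral and 226 periportal cells. Thbd had 70 UMIs in pericentral and 33 in periportal cells (log2 ratio 1.01, interval 0.40 to 1.66), where 14.3% of 2192 genes were at least 1.5-fold higher in pericentral cells. Tfpi had 39 and 24 (0.63, -0.14 to 1.43), F8 192 and 171 (0.10, -0.21 to 0.40), Pros1 61 and 55 (0.08, -0.47 to 0.63) and Vwf 9 and 3. When the cells were split at the median score, Thbd was at 0.78 (0.31 to 1.27) and Tfpi at 0.63 (0.08 to 1.196). The intervals of F8 and Pros1 spanned 0 in both splits, Thbd's in neither and Tfpi's in the tertiles only. Vwf had 12 and 17 UMIs in that split, so its direction turned with the split.

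Cell classes were rebuilt from the 2692 single-cell wells with at least 300 UMIs, by clustering without the coagulation genes and naming from marker lists. There were 847 endothelial-like, 649 T-like, 295 Kupffer-like, 284 B-like, 239 NK-like, 149 conventional dendritic-like, 111 plasmacytoid dendritic-like and 30 neutrophil-like cells, and 88 cells were not named. All 20 endothelial markers were at least 2-fold higher in the endothelial-like cluster than in the rest. The median cell had 570 UMIs in the endothelial-like class and 414 to 1346 in the other named classes.

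F8 was the most abundant coagulation gene in endothelial-like cells. It had 702 UMIs there and 24 in the other named classes together, or 1203 and 13.3 UMIs per 1000000, a 90.8-fold difference. A UMI of F8 was seen in 43.0% of endothelial-like cells (median depth 570 UMIs) and in 1.23% of T-like cells (median depth 830), or in 27.3% and 0.462% after each cell was thinned to 300 UMIs. Thbd had 173 and 23 UMIs in endothelial-like and other cells (23.3-fold), and Tfpi had 131 and 22 (18.5-fold). Vwf, the carrier of factor VIII in plasma, had only 29 and 3 UMIs, or 49.7 and 1.66 per 1000000. Its 29 UMIs were in 19 of the 847 cells, and 1 cell held 6.

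Of the genes first counted as hepatocyte genes, Pros1 stood out among endothelial-like cells. It had 241 UMIs there and 58 in the other classes, or 413 and 32.03 per 1000000 (12.9-fold). Among the other classes its level was highest in Kupffer-like cells, at 74.3. Mcfd2, at 267 and 81.2 per 1000000, was 3.29-fold higher in endothelial-like cells, and Lman1, at 142 and 50.3, was 2.83-fold higher. Of the 32 genes 25 had at least 30 UMIs over both groups, and 7 of these 25 were at least 2-fold higher in endothelial-like cells (F8, Vwf, Thbd, Tfpi, Pros1, Mcfd2 and Lman1), as were 18.1% of the 9372 genes measured, and 0 were at least 2-fold lower, as were 22.7%. Each of the 7 was higher in endothelial-like cells in both runs of well numbers. The 7 genes under the minimum were F7, F11, F13b, Proz, Procr, Plat and Ggcx, the last with 22 and 6 UMIs.

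Procr, the endothelial protein C receptor, had few UMIs in endothelial-like cells. It had 2 UMIs there, 2 each in Kupffer-like and T-like cells and 14 in conventional dendritic-like cells, in 8 of 149 cells. Plat had 1 UMI in endothelial-like and 1 in T-like cells. In these single cells the endothelial label thus held for F8, Vwf, Thbd and Tfpi, while the counts of Procr were higher in conventional dendritic-like cells.

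**Figure D4:**
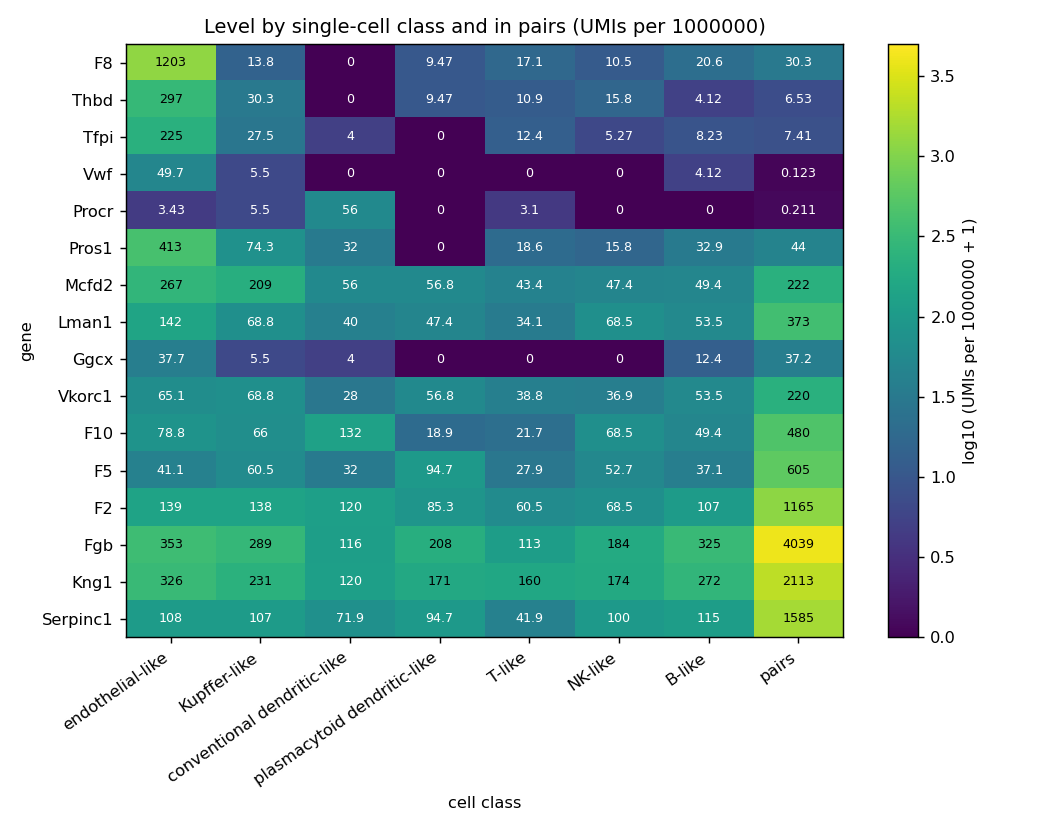
Level in UMIs per 1000000 of coagulation genes in single-cell classes and in pairs, with colour on a log10 scale. F8, Thbd, Tfpi, Vwf and Pros1 are highest among single cells in the endothelial-like column, Procr is highest in the conventional dendritic-like column, and the hepatocyte factors are highest in pairs.

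Every named class held hepatocyte mRNA. Alb, the albumin gene, had 2548 (T-like) to 8938 (neutrophil-like) UMIs per 1000000 in the named classes and 63956 in pairs. The secreted coagulation genes stood at 0.158 to 0.207 UMIs per UMI of 11 hepatocyte markers in the named classes and at 0.148 in pairs. The endothelial-like class was at 0.207, and 241 of its 1242 UMIs of these genes were Pros1. The UMIs expected from hepatocyte RNA were therefore computed for each gene, from its level in pairs and the hepatocyte marker UMIs of the class.

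In endothelial-like cells Fgb had 206 UMIs, 1.07 times the 193 expected (interval 0.93 to 1.22). Serpinc1 was at 0.83 times, F5 at 0.83 times, Plg at 1.05 times and Proc at 1.05 times. Fga was at 1.32 times (1.08 to 1.60), F2 at 1.45 times (1.15 to 1.81), Kng1 at 1.88 times (1.62 to 2.17) and F10 at 2.00 times (1.47 to 2.67), while Fgg was at 0.71 times (0.57 to 0.88). Of the 22 secreted genes, 16 had an interval that spanned 1, 5 lay above it (Fga, F2, Kng1, F10 and Pros1) and Fgg lay below it. Pros1 was the farthest off, with 241 UMIs against 2.11 expected. F8 had 702 UMIs against 1.45 expected. Thbd was at 554 times and Tfpi at 370 times the expected number. For Fga, F2, Kng1, F10 and Fgg, other classes also had intervals wholly on the same side of 1. Kng1 was at 1.88 times in T-like and 1.79 times in B-like cells. F2 was at 1.67 times and F10 at 1.94 times in Kupffer-like cells. Fga was at 1.44 times and Fgg at 0.68 times in T-like cells. Each of these 5 genes also had classes with an interval that spanned 1. Their values are thus not particular to endothelial-like cells.

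The export and vitamin K genes were not alike among classes. Mcfd2 was at 14.7 times (interval 12.4 to 17.2) in endothelial-like and 13.3 times (10.5 to 16.6) in Kupffer-like cells. Mcfd2 and Lman1 had values above 1 in all 8 named classes, with intervals that spanned 1 in neutrophil-like cells and, for Lman1, in plasmacytoid dendritic-like cells. Lman1 was at 4.65 times in endothelial-like cells. Ggcx was at 12.4 times (7.74 to 18.7) in endothelial-like cells. Its intervals spanned 1 in Kupffer-like, conventional dendritic-like and B-like cells, and it had 0 UMIs in the other 4 named classes. Vkorc1 lay between 2.69 and 4.74 times in the 7 named classes other than neutrophil-like cells, which had 0 of its UMIs. F10 was at 5.82 times (interval 4.004 to 8.17) in conventional dendritic-like cells, with 33 UMIs in 15 of 149 cells. The genes that led this cluster included Alox15, Prg4 and Lyz1 beside Xcr1 and Cd209a. Whether its cells with F10 or Procr UMIs were dendritic cells was not tested.

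**Figure D5:**
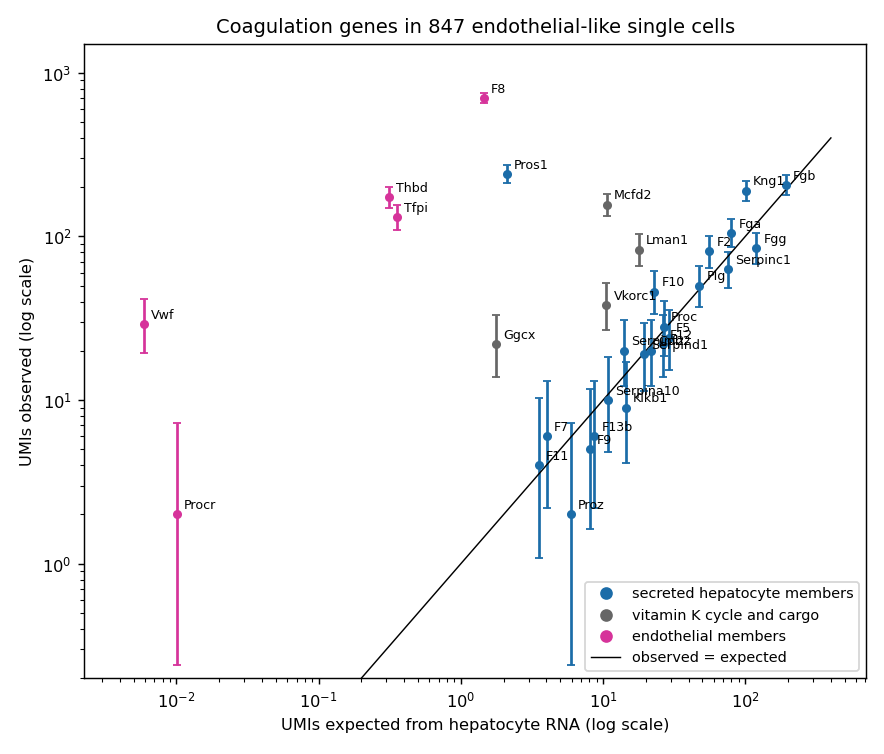
UMIs observed in endothelial-like cells against UMIs expected from their hepatocyte RNA, on log scales, with 95% Poisson intervals and the line of equality. Most secreted factors lie near the line, and F8, Thbd, Tfpi, Vwf and Pros1 lie far above it.

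How much of each gene in pairs the endothelial partner could supply was then estimated. Over 20 endothelial markers, the level in pairs was 2.35% of that in endothelial-like cells (median; quartiles 2.16% and 2.65%). At that share, endothelial RNA accounted for 93.5% of F8 in pairs, 107% of Thbd, 71.3% of Tfpi and 22.1% of Pros1. For the other 21 secreted genes it accounted for 0.0652% (Proz) to 0.386% (F10), and for Mcfd2 for 2.83%. These values count every UMI of endothelial-like cells as endothelial, also those expected from hepatocyte RNA, so they include that part. For Vwf the value was 952%, more than pairs held. The single cells came from older mice, and the part of age in these values was not tested.

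A further comparison was added after the data had been seen. Within each layer, pairs were divided by the share of their UMIs in the endothelial set without the coagulation genes, giving 1528 pairs rich and 1528 poor in endothelial RNA. Thbd had 12.1 UMIs per 1000000 in rich and 3.22 in poor pairs (3.75-fold), F8 56.0 and 15.8 (3.54-fold) and Tfpi 13.1 and 3.89 (3.35-fold). Of the 10966 measured genes outside that endothelial set, 8.16% were at least 1.5-fold higher in rich pairs. The share among the other endothelial genes, which set the division, was not computed. Pros1 had 53.8 and 38.1 (1.41-fold), and F5 663 and 577 (1.15-fold). The 21 secreted genes other than Pros1, F5 among them, had a median log2 ratio of 0.01, beside 0.05 for those 10966 genes. Rich pairs had a median of 7177 UMIs and poor pairs 13804, and the part of this depth in the ratios was not tested.

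Levels also varied between pairs of the same layer and block. Beyond counting error, the coefficient of variation was 12.9% for Serpinc1, 13.3% for F2, 15.5% for Fgb and 23.2% for F5, beside a median of 18.3% over 793 genes. With layer and block removed, the Pearson r over 4572 pairs was 0.40 between Fgb and Fgg, 0.36 between Fga and Fgb, 0.36 between Fgb and Kng1 and 0.32 between Fga and Fgg. The median over 210 pairings of the genes was 0.07. These values share wells and depth and are a description. Fgb, Fgg, Kng1 and Fga also had the most UMIs per pair of the genes compared (50.1, 31.0, 26.2 and 20.6). Counting error lowers r least at such levels, and r between other genes of like level was not computed.

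Of 38 other coagulation pathway genes, 24 were measured between zones, with a median log2 ratio of 0.04. S100a10, Nqo1 and Gas6, 3 of the 24, were past 1.5-fold in the pericentral zone, as were 8.84% of all genes measured. Hgfac and F3, 2 of the 24, were past it in the periportal zone, as were 5.1% of all genes measured. S100a10, part of a plasminogen receptor, had 129 and 64.1 UMIs per 1000000 in pericentral and periportal pairs (1.01), Nqo1, a quinone reductase, 5.07 and 2.51 (1.01), and Gas6, a vitamin K-dependent ligand of TAM receptors, 35.4 and 19.96 (0.83). Hgfac, a protease related to factor XII, had 141 and 249.3 (-0.82), Kng2 154 and 204 (-0.40) and Pzp, a protease inhibitor of the alpha-macroglobulin family, 3594 and 4270 (-0.25). F3, tissue factor, had 26 and 41 UMIs, with an interval of -1.46 to 0.05.

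In single cells the pathway gene with the highest level was Stab2, a scavenger receptor, in endothelial-like cells, at 1459 UMIs per 1000000. It was Lrp1, a clearance receptor, in Kupffer-like cells (823) and Fgl2 in conventional dendritic-like cells (488). In plasmacytoid dendritic-like cells it was P4hb, a protein disulfide isomerase (512). In neutrophil-like cells it was Anxa2, the partner of S100a10, at 1287, from only 18 UMIs in 30 cells. S100a10 itself was highest in T-like (941), NK-like (922) and B-like cells (634). Stab2 is also among the 20 endothelial markers that named its class, so its high level there is no independent result. The pathway genes were not left out of the clustering.

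Of 20 regulator genes, 19 were measured, with a median log2 ratio of -0.04. Cebpb, a factor of the acute-phase response, had 531 and 362 UMIs per 1000000 in pericentral and periportal pairs (0.55), Foxa1 19.7 and 15.2 (0.37) and Foxa2 23.5 and 19.6 (0.26). Esr1, the oestrogen receptor, had 27.0 and 40.2 (-0.57), and Klf4 2.36 and 3.41 (-0.53, interval -1.11 to 0.04). Hnf4a, a main hepatocyte transcription factor, had 499 and 525 (-0.07).

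Other markers also differed between zones. The 11 hepatocyte markers were 9.87% of UMIs in pericentral and 15.5% in periportal pairs, with 9 of 11 below 0 and a median log2 ratio of -0.22. The 10 Kupffer cell markers had 187 UMIs in pericentral and 222 in periportal pairs, with 5 of 10 measured and a median log2 ratio of -0.77. The 6 platelet markers had 38 and 42 UMIs. The 6 cholangiocyte markers had 40 and 321 UMIs, and both of those measured were past 1.5-fold in the periportal zone (median -3.02). The 5 B cell markers had 76 and 17 UMIs, with 1 measured (2.18). The 6 monocyte or macrophage markers had 11854 and 14021, with 2 measured, at -2.09 and -0.27 (median -1.18). The 3 plasma cell markers had 2016 and 2865, with 1 measured (-0.55). The last 2 lists were not checked for genes that hepatocytes also express, so their UMIs are no measure of such cells. The part of all these markers in the zone ratios of the coagulation genes was not tested. Without the 79 pairs that held at least 2 Kupffer marker UMIs, the secreted median was -0.28.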

How the data were processed

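The authors deposited counts, whole numbers of UMIs per gene and well, with no normalization. The submitters' processing notes name bcl2fastq 2.15.0.4 and the build mm9. Which aligner and which annotation were used is not given in the sources used here. ERCC spike-in RNA (92 rows, 0.715% of UMIs in pairs and 52.8% in single cells) was left out, as were 68 single-cell rows whose symbols differ only in case. Gene UMIs totalled 56976156 in pairs (2423 to 49311 per well) and 2660172 in single cells (60 to 5531). The tables share 0 well names. Well names point to no library or animal. A test of summed counts per mouse, planned for the case that they did, was not run, and levels with intervals took its place.

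Pairs needed at least 1000 UMIs and 20 landmark UMIs. UMIs were summed per zone, layer or class, with exact Poisson intervals for levels, exact conditional binomial intervals for ratios and exact binomial (Clopper-Pearson) intervals for shares of cells, at 95%. These cover counting error only. A gene needed at least 30 UMIs over both groups. Single cells were clustered on 2000 variable genes and 30 principal components at resolution 1.0, and a cluster took a name from at least 3 markers 2-fold higher in it. Doublets were not called. Ratios were also run on simulated counts drawn with counting error only, as the intervals assume. Such a run does not cover the spread between pairs, blocks or mice. Python 3.11.15, numpy 2.4.6, scipy 1.17.1, pandas 2.3.3 and scanpy 1.11.5 were used.

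The members and lists were chosen with earlier results of these data known. All 32 genes are named; of the pathway and regulator lists, the 3 largest folds in each direction with at least 100 UMIs, and for the pathway list the highest in each class; the highest regulator in each class is not given. The result of 1 regulator that this rule names is not reported here. Hnf4a and F3 were named after their values were seen. Of 2 landmark lists run, the first held Pck1, which was left out after gene values had been seen with it; both results are given.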

Additional observations from a re-analysis of the deposited data

How the results depend on the processing

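The count of hepatocyte genes past 1.5-fold between zones, 3 of 26 as reported, was the least stable value. It was 0 with pairs split at the median score, 1 with zones taken within blocks, 1 with 8 landmark genes and 0 with the landmark list first run, which held Pck1. Leaving out 1 block gave 2 to 3. The secreted median of -0.28 was -0.21 with the median split, -0.21 within blocks and -0.38 with median-of-ratios size factors, and -0.29 to -0.27 without 1 block. The endothelial median of 0.38 was 0.30 to 0.47 without 1 block. F8 in pairs accounted for by endothelial RNA was 86.0% and 105% at the quartiles of the markers, beside 93.5%. Of 815 values of single genes under alternatives, 808 had the sign of the reported value, with exceptions in F8, Ggcx, Mcfd2 and Vkorc1. Of the 28 alternatives of the zones, 17 each left out only 1 block, so their values could hardly change sign. Of the 815 values, 80 lay outside the counting interval of the reported value. The count of 7 genes higher in endothelial-like cells was 6 to 9 under the alternatives. The fit with Pck1, the fit without blocks of under 100 wells, the 2 runs of well numbers and the division by endothelial share were chosen after seeing the data. TMM factors, named in the plan beside median-of-ratios factors, were not run. The cause of these changes was not tested.

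No paired analysis was possible because well names name neither a library nor an animal. The mice, libraries and digestion enzymes cannot be told apart, and the depth of Vwf, Procr and Plat does not allow a ratio between zones.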

Other observations

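An unnamed cluster of 68 single cells held markers of hepatocytes (Alb at 32838 UMIs per 1000000) and was led by Dcn and Rgs5, genes of stellate or mural cells. In it F7 had 10 UMIs, or 220 per 1000000, F8 19 (418) and Fgb 69 (1519). These cells entered no comparison.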
